A study of Mus musculus with 4 samples.

Results

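The 10 genes described here carry the core of transforming growth factor beta (TGF-beta) signalling: the ligand genes Tgfb1, Tgfb2 and Tgfb3, the latency partner gene Ltbp1, the receptor genes Tgfbr1, Tgfbr2 and Tgfbr3, the signal carrier gene Smad3, and Smad7 and Skil, which dampen the signal. They were found as all non-control probes whose accession belongs to one of these symbols in RefSeq, which gave 14 of the 41174 probes on the array, for 10 of the 18353 genes that a probe could be matched to. Of the 14, 13 were well above background on all 4 arrays and were tested. The second Smad3 probe was above background on 0 arrays. The samples are endothelial cells, the inner lining of vessels, isolated from adult mouse hearts. There are 2 G2-EC-KO samples, whose genotype is labelled as a Gata2 knock out, and 2 control samples, labelled wild type. The promoter that drives the deletion, the deleted part of the gene, the age beyond adult and any pooling of animals are not given in the sources used here. Nothing in the labels says that the replicates came from separate animals, so the p-values cover only how far these samples vary, and that variation may be technical.

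TGF-beta ligands are made as precursors that stay bound to their own propeptide, and the latent complex is anchored in the matrix by latent TGF-beta binding proteins such as the product of Ltbp1. Once released, a ligand binds the type II receptor, encoded by Tgfbr2, which activates the type I receptor, encoded by Tgfbr1, and SMAD proteins such as the product of Smad3 then carry the signal to the nucleus. In endothelium the pathway is known for its part in vessel maturation and in the change of endothelial cells towards mesenchymal cells.

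None of the 10 genes passed the threshold between G2-EC-KO and control (limma with Benjamini-Hochberg adjustment over the 26894 probes tested, adjusted p from 0.511 to 0.882). Of the 13 probes tested, 11 had a log2 change below 0 and 2 above 0. Below-zero changes made up 50.4% of all probes tested. At 1 probe per gene, the brightest, 8 of the 10 genes were below 0 and 2 above it, against 41.9% below 0 over all genes with a symbol. The median of the 10 genes was -0.096, against 0.041 over all genes with a symbol. The median log2 change was -0.10 over the 13 probes, against -0.0020 over all probes tested. It was -0.033 without G2-EC-KO replicate 2 and -0.165 without G2-EC-KO replicate 1. At an unadjusted p under 0.05 there was 1 probe, that of Tgfbr3, on the lower side, against 9.63% of all probes in either direction, 4.73% on the lower side and 4.90% on the higher side. Past an adjusted p of 0.05 there was 1 probe in the whole table, 0.00372% of those tested, for the cDNA AK038629, named here after its values were seen. With 2 arrays per group the smallest two-sided p of an exact permutation test is 0.333, and p-values here are those of limma.

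On the arrays as a whole, 63.8% to 66.5% of probes were well above background, the 75th percentile of the processed signal was 1288 and 1181 on the G2-EC-KO arrays, against 1411 and 1438 on the control arrays, and 0 spots were saturated. All 4 arrays lay on 1 slide in 1 scan, with G2-EC-KO at positions 3 and 4 and control at positions 1 and 2, so that position and group cannot be told apart. Gata2 itself had signals in the 2 groups that overlapped and means that were higher for G2-EC-KO, with log2 changes of 0.29 (SE 0.18) and 0.17 (SE 0.14) at its probes (limma, adjusted p = 0.586 and 0.653). Where these probes lie relative to the deletion is not given in the sources used here, so this checks nothing and every direction below rests on the labels. Endothelial markers, 14 of 14 above background, had a median log2 change of 0.020, which was -0.023 with quantile normalization and ranged from -0.060 to 0.052 with 1 array left out. The markers went both ways, from -0.37 (SE 0.13) for Erg, at an unadjusted p of 0.0374 (limma, adjusted p = 0.507), to 0.14 (SE 0.13) for Egfl7 (limma, adjusted p = 0.688). Tek, Tie1 and Pecam1, named like Erg and Egfl7 after their values were seen, were like Erg lower without overlap, with log2 changes of -0.24 (SE 0.11), -0.23 (SE 0.11) and -0.24 (SE 0.13; limma, adjusted p = 0.548, 0.548 and 0.575). Robo4 and Emcn, named in the same way, were higher without overlap, at 0.13 (SE 0.12) and 0.085 (SE 0.11; limma, adjusted p = 0.680 and 0.775). Of the 14 markers, 8 had a log2 change above 0 and 6 below it. Over all probes, 22.6% were lower and 23.8% higher without overlap. The part of these markers in the values below was not tested. Fewer cells of a type and less RNA per cell cannot be told apart in these bulk samples.

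**Figure D1:**
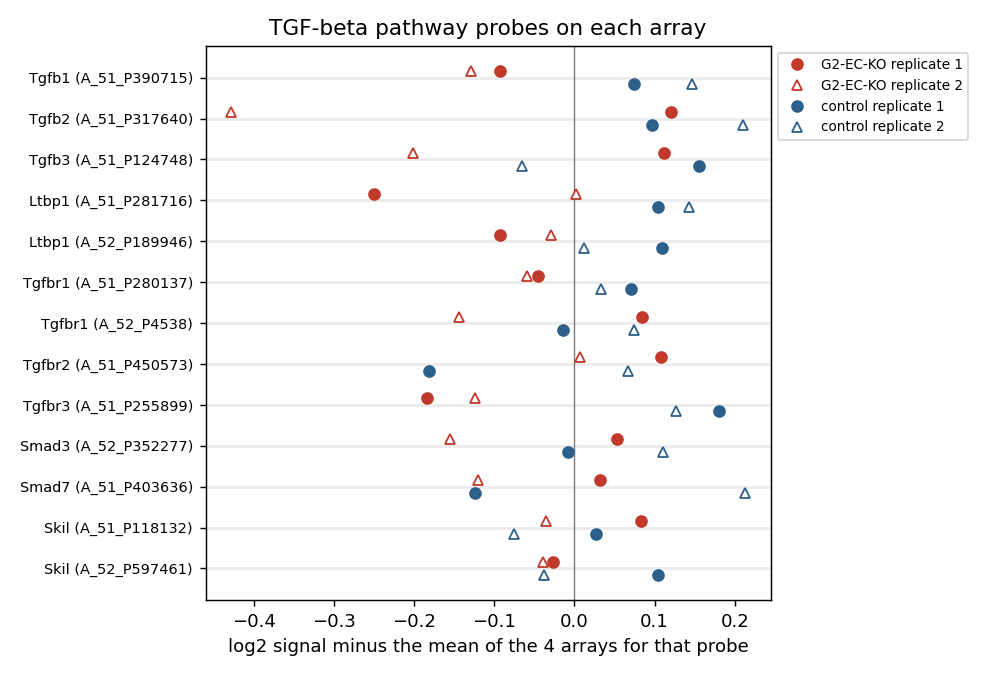
The signal of each tested probe on the 4 arrays, as log2 signal minus the mean of the 4 arrays for that probe, with G2-EC-KO in red and control in blue. The groups separate at 5 of the 13 probes, those of Tgfb1 and Tgfbr3, both of Ltbp1 and the dimmer of Tgfbr1, with G2-EC-KO lower at each.

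The groups did not overlap at 5 of the 13 probes, and G2-EC-KO was the lower group at each of the 5. Over all probes the groups did not overlap at 46.4%, with G2-EC-KO lower at 22.6% and higher at 23.8%. The other 8 probes overlapped. Among the 5 are the probe of Tgfbr3 and the dimmer probes of Ltbp1 and Tgfbr1. These were the 3 of the 13 among the 7400 dimmest probes tested. With normexp background correction or the deposited value table, 3 of the 13 did not overlap. Signals below are log2 ratios to the 75th percentile of the same array, so that 0 is that percentile, and since probes differ in how strongly they bind, no probe's level is set against another's.

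Among the ligands, Tgfb1, the form made most widely by vascular and blood cells, read 2.22 and 2.18 on the G2-EC-KO arrays, against 2.39 and 2.46 on the control arrays. The 2 G2-EC-KO arrays lay close together and both lay below the control arrays. Its log2 change was -0.22 (95% confidence interval -0.50 to 0.062, SE 0.11; limma, adjusted p = 0.548), a change of -14.2% with an interval of -29.5% to 4.38%. The Tgfb1 probe was printed 10 times on each array, which gives its precision within an array. The 10 spots ranged from 2.15 to 2.30 on G2-EC-KO replicate 1 and from 2.15 to 2.22 on G2-EC-KO replicate 2, against 2.31 to 2.42 on control replicate 1 and 2.41 to 2.51 on control replicate 2. Every G2-EC-KO spot was thus below every control spot. The SD of single spots, pooled over the 4 arrays, was 0.037 on the log2 scale. The SE of 0.11 is that of the difference between group means, a different measure. Spots of an array share its sample and are not replicates of a genotype. Of the 178 tested probes printed 10 times, 39 were lower and 39 higher in G2-EC-KO without overlap of the array means. How many of these also separated at every spot was not counted.

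**Figure D2:**
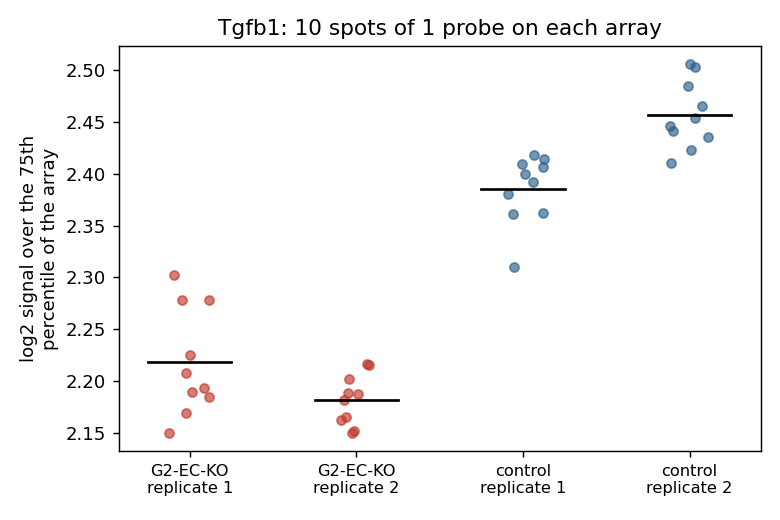
The 10 spots of the Tgfb1 probe on each array, as log2 signal over the 75th percentile of the array, with the mean of each array as a bar. The G2-EC-KO spots reach up to 2.30 and the control spots start at 2.31, and the spots of one array share one sample.

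Tgfb2, a ligand known from heart valve formation, read 0.067 and -0.48 on the G2-EC-KO arrays, against 0.044 and 0.16 on the control arrays. G2-EC-KO replicate 1 lay between the control arrays and replicate 2 far below all others. The log2 change was -0.31 (SE 0.21; limma, adjusted p = 0.618), with an interval of -45.3% to 19.3% on the linear scale, the widest of the set. It was -0.58 without G2-EC-KO replicate 1 and -0.033 without G2-EC-KO replicate 2. Tgfb3 read 3.77 and 3.46 on the G2-EC-KO arrays, against 3.82 and 3.60 on the control arrays. Here too G2-EC-KO replicate 2 was the lowest array, and the groups overlapped. The log2 change was -0.090 (SE 0.16; limma, adjusted p = 0.841), and it was 0.066 without G2-EC-KO replicate 2 and 0.021 without control replicate 1. On G2-EC-KO replicate 2 the summed level of 11 pericyte and smooth muscle markers was also the lowest, at 360 and 258 times the 75th percentile on the G2-EC-KO arrays, against 351 and 315 times on the control arrays, with 11 of 11 above background and 9 of 11 log2 changes below 0. Cardiomyocyte markers were highest there, at 126 and 181 times on the G2-EC-KO arrays, against 122 and 121 times on the control arrays, with 16 of 16 log2 changes above 0. The part of either in the ligand values was not tested.

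The promoters of Tgfb1 and Tgfb2 are shown because the factor named in the labels, GATA2, binds GATA sites and because both ligands are described above. RefSeq windows of 300 bases, 250 before to 50 after the start in build GRCm38.p6, were used for 6 of the 10 genes, 8 windows in all. Tgfb3, Tgfbr3, Smad7 and Skil have no window here, so their promoters were not searched and the counts below do not cover them. The shares over all promoter windows below were not matched to the genes searched. The motifs below were searched on both strands without overlap between different motifs, and capitals mark every match. The core of a GATA site was searched as GATAA. The SMAD box was searched as CAGAC. The GC box was searched as GGGCGG, and the TATA box as TATAAA.
Tgfb1, chr7:25686752-25687051, plus strand: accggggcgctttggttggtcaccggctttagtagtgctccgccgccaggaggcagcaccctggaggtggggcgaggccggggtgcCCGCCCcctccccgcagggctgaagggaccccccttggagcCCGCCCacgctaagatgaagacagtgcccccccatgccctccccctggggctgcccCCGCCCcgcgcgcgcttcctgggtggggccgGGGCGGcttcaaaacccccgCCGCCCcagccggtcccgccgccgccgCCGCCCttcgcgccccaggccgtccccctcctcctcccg
Tgfb2, chr1:186705940-186706239, minus strand: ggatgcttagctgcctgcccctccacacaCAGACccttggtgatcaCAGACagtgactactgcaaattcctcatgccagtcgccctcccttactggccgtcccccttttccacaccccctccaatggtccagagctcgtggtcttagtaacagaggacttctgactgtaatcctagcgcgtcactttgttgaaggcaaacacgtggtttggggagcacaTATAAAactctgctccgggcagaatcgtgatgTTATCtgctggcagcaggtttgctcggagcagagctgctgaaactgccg
The Tgfb1 window held 6 GC boxes and none of the other motifs, and the Tgfb2 window held 1 TATA box 31 bases before the start, 2 SMAD boxes and 1 GATAA, read on the opposite strand as TTATC just after the start. GATAA was found in 1 of the 8 windows, that of Tgfb2, and in 25.4% of all 32851 promoter windows. SMAD boxes were found in 5 of the 8 windows and in 49.6% of all, GC boxes in 3 of the 8 and in 35.7% of all, and TATA boxes in 1 of the 8 and in 13.6% of all. A match is a run of letters, not a bound site.

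Ltbp1, whose product covalently binds the latent ligand and tethers it to the matrix, was measured by a pair of probes. The brighter, A_51_P281716, read -0.31 and -0.063 on the G2-EC-KO arrays, against 0.040 and 0.078 on the control arrays. The groups did not overlap, but the distance between arrays was wider within G2-EC-KO than within control. The log2 change was -0.25 (SE 0.13; limma, adjusted p = 0.568), or -15.8% with an interval of -34.1% to 7.62%. Without G2-EC-KO replicate 1 it was -0.12, and without G2-EC-KO replicate 2 it was -0.37. The dimmer probe, A_52_P189946, read -3.32 and -3.25 on the G2-EC-KO arrays, against -3.11 and -3.21 on the control arrays. Its groups did not overlap either, and its log2 change was -0.12 (SE 0.11; limma, adjusted p = 0.684). With normexp background correction this shrank to -0.035.

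Tgfbr2, the type II receptor that binds ligand first, read 4.01 and 3.91 on the G2-EC-KO arrays, against 3.73 and 3.97 on the control arrays. Control replicate 1 was the lowest array and the groups overlapped. It was the only receptor with a log2 change above 0, at 0.12 (SE 0.14; limma, adjusted p = 0.751), and without control replicate 1 the value was -0.0089. The interval, -15.7% to 39.1%, is wide enough to hold changes in both directions. Tgfbr1, the type I receptor kinase, read 1.63 and 1.40 on the G2-EC-KO arrays, against 1.53 and 1.62 on the control arrays at its brighter probe, A_52_P4538. These overlapped, with a log2 difference of -0.060 (SE 0.13; limma, adjusted p = 0.870), which turned to 0.054 without G2-EC-KO replicate 2. Its dimmer probe, A_51_P280137, read -3.44 and -3.46 on the G2-EC-KO arrays, against -3.33 and -3.37 on the control arrays, a log2 difference of -0.10 (SE 0.10; limma, adjusted p = 0.709) without overlap. With normexp background correction this difference was -0.051.

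Tgfbr3 encodes betaglycan, the co-receptor that presents ligand, above all the Tgfb2 product, to the type II receptor. It had the smallest p of the 10 genes. The probe read -3.41 and -3.35 on the G2-EC-KO arrays, against -3.05 and -3.10 on the control arrays. Both G2-EC-KO arrays lay below both control arrays, by more than the arrays of either group differed. The log2 change was -0.31 (95% confidence interval -0.59 to -0.024, SE 0.11), a change of -19.2%, with an unadjusted p of 0.0388 that did not survive adjustment (limma, adjusted p = 0.511). The probe is dim, with a processed signal of 121 and 115.7 on the G2-EC-KO arrays, against 170.6 and 167.6 on the control arrays, after subtraction of local backgrounds whose median over each array was 37 to 40.5. With normexp background correction the log2 change was -0.16 (limma, unadjusted p = 0.162). Over all tested probes, the 7400 dimmest, those below -3 on this scale, had a median log2 change of -0.039, and 3 of the 13 probes are among them.

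**Figure D3:**
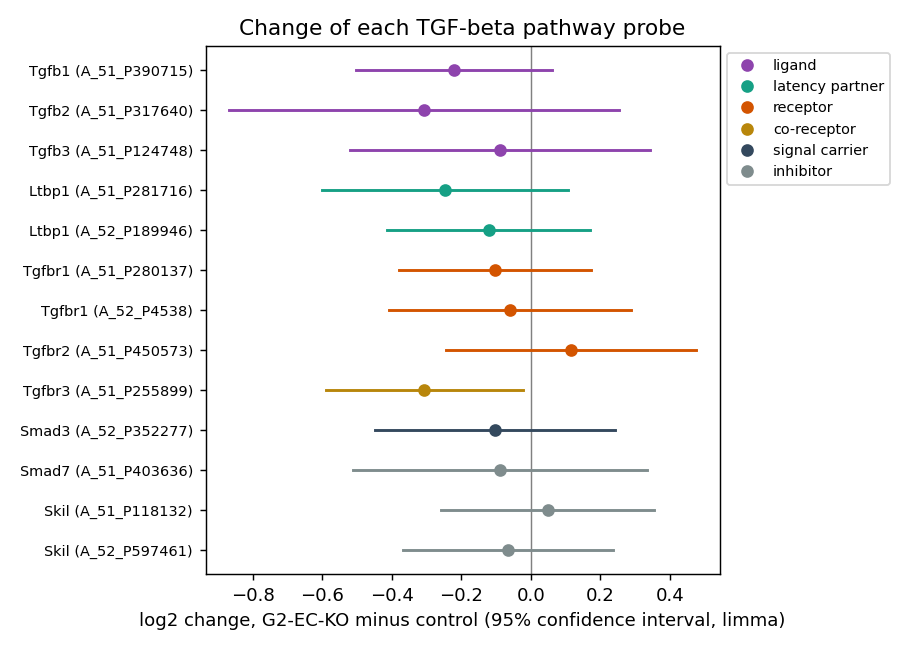
The log2 change of each tested probe, G2-EC-KO minus control, with its 95% confidence interval from limma, coloured by the role of the gene. Intervals of 12 of the 13 probes include 0, and that of Tgfbr3 ends at -0.024.

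Downstream of the receptors, Smad3, which enters the nucleus once phosphorylated, read -0.99 and -1.20 on the G2-EC-KO arrays, against -1.05 and -0.94 on the control arrays at A_52_P352277. The groups overlapped, and the log2 change was -0.10 (SE 0.13; limma, adjusted p = 0.771), or 0.0018 without G2-EC-KO replicate 2. Its second probe, A_51_P441022, was not well above background on any array and gives no comparison. Smad7, which blocks the type I receptor and is itself induced by the pathway, read 1.67 and 1.52 on the G2-EC-KO arrays, against 1.52 and 1.85 on the control arrays. The control arrays stood farther apart than the group means, and the log2 change was -0.089 (SE 0.16; limma, adjusted p = 0.838), or 0.080 without control replicate 2. Skil encodes SnoN, a corepressor that holds SMAD complexes inactive. At its brighter probe, A_51_P118132, it read 2.71 and 2.59 on the G2-EC-KO arrays, against 2.65 and 2.55 on the control arrays. At its dimmer probe, A_52_P597461, it read -0.29 and -0.30 on the G2-EC-KO arrays, against -0.16 and -0.30 on the control arrays. The probes differed in sign, with log2 changes of 0.048 (SE 0.12) and -0.067 (SE 0.11; limma, adjusted p = 0.882 and 0.827), and each crossed 0 on removal of a single array.

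**Figure D4:**
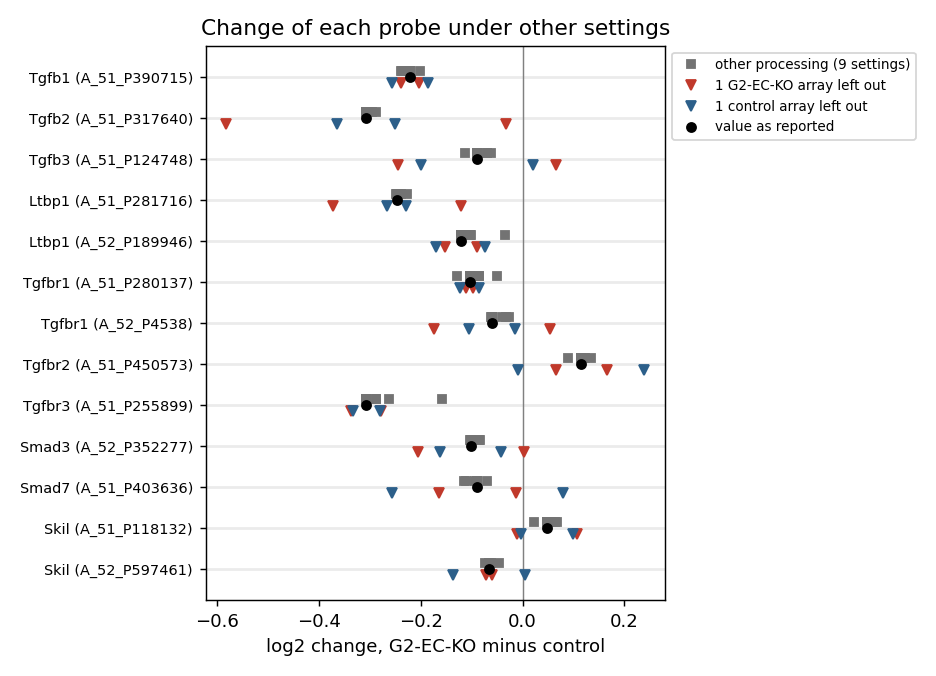
The log2 change of each tested probe as reported (black), under the 9 other ways of processing all 4 arrays (grey squares) and with 1 array left out (triangles, red for a G2-EC-KO array and blue for a control array). Under the grey settings 0 probes cross 0, and 7 of the 13 cross it when 1 array is left out, with Tgfb2 spanning -0.58 to -0.033. Of the grey settings, the filters, the intensity trend and the replicate block cannot move a log2 change, and keeping outlier spots moved none here. A sign could thus turn only with normexp, quantile normalization, median centring or the deposited value table.

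Other genes of the pathway were taken from 3 lists, each read at 1 probe per gene, the brightest. Over all 13628 genes with a symbol, 6.13% stood on the higher side and 2.06% on the lower side at an unadjusted p under 0.05, and 0 passed adjustment. Of 19 genes that store or activate latent TGF-beta, 17 had a probe and 16 were tested, 1 was higher and 0 lower at that p, and the median log2 change was 0.061, against 0.041 over all genes with a symbol. That gene was Ltbp2, a binding protein of the Ltbp1 family that sits in matrix fibrils but does not bind latent ligand. The only call in this list is thus not for a gene that holds latent ligand. Ltbp2 read -0.086 and -0.29 on the G2-EC-KO arrays, against -1.05 and -1.15 on the control arrays. The groups stood far apart compared with the distance between their own arrays, at a log2 change of 0.91 (SE 0.13, 95% confidence interval 0.57 to 1.25), which did not pass adjustment (limma, unadjusted p = 0.0012, adjusted p = 0.387). On removal of a single array it ranged from 0.81 to 1.01. The brightest genes of the list had log2 changes of 0.036 (SE 0.11) for Ltbp4, a matrix anchor of latent TGF-beta, 0.12 (SE 0.21) for the proteoglycan Dcn, and -0.17 (SE 0.13) for Furin, the protease that cuts the ligand precursors (limma, adjusted p = 0.905, 0.827 and 0.639).

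Of 27 genes for co-receptors, signal carriers and brakes, 26 were tested, with 0 higher and 1 lower at an unadjusted p under 0.05 and a median log2 change of -0.047. The one was Acvr2b, an activin type II receptor, which read -1.95 and -2.11 on the G2-EC-KO arrays, against -1.61 and -1.77 on the control arrays, a log2 difference of -0.34 (SE 0.13; limma, unadjusted p = 0.0471, adjusted p = 0.516). The brightest were Eng, the endothelial co-receptor endoglin, at 0.033 (SE 0.13), Ski, the corepressor related to Skil, at -0.17 (SE 0.12), and Fkbp1a, which binds the type I receptor, at 0.14 (SE 0.11; limma, adjusted p = 0.931, 0.614 and 0.652). A second Ski probe gave -0.075 (SE 0.13). The third, A_52_P165497, gave a log2 change of -0.68 from signals of 0.64 and -0.22 on the G2-EC-KO arrays, against 0.85 and 0.94 on the control arrays, with G2-EC-KO replicate 2 far below the other 3 arrays. The signal carriers next to Smad3, named after their values were seen, did not pass either. Smad2 gave a log2 change of 0.12 (SE 0.11), and Smad4, the partner shared with BMP signalling, gave 0.069 (SE 0.12) at its brighter probe (limma, adjusted p = 0.679 and 0.833). The dimmer Smad4 probe, which the count above does not read, gave -0.39 (SE 0.11; limma, unadjusted p = 0.0164, adjusted p = 0.443), with 1.65 and 1.63 on the G2-EC-KO arrays, against 2.01 and 2.05 on the control arrays. The 2 Smad4 probes thus differed in sign.

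**Figure D5:**
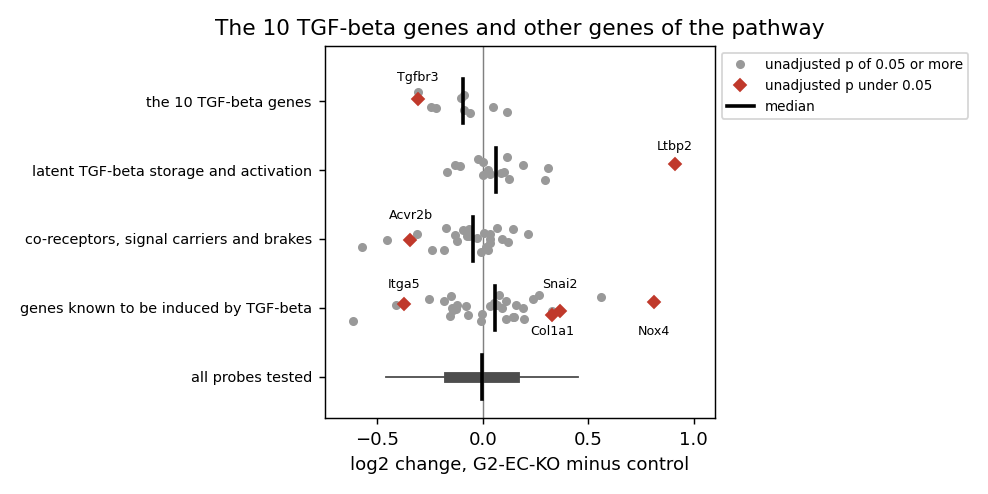
The log2 change, G2-EC-KO minus control, of the 10 genes and of the genes of 3 pathway lists at 1 probe per gene, with the median as a bar and red diamonds at an unadjusted p under 0.05. The lowest row shows all probes tested, with the 25th to 75th percentile, -0.16 to 0.15, as a thick line and the 5th to 95th, -0.46 to 0.45, as a thin one. Of the list genes, Ltbp2 at 0.91 and Nox4 at 0.81 stand highest, and Ltbp2, Nox4 and a few genes not at that p lie outside the thin line.

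Genes known to be induced by TGF-beta stood on both sides of 0, with 19 log2 changes above and 15 below it. Of 37 genes, 34 were tested, 3 were higher and 1 lower at an unadjusted p under 0.05, and the median log2 change was 0.059, or -0.025 without control replicate 1. Nox4, an NADPH oxidase, read -2.71 and -2.94 on the G2-EC-KO arrays, against -3.39 and -3.88 on the control arrays. The log2 change was 0.81 (SE 0.21; limma, unadjusted p = 0.0134, adjusted p = 0.421), while the second Nox4 probe, also above background on 4 arrays, gave 0.091 (SE 0.25). Col1a1, the collagen I chain, gave 0.33 (SE 0.11) at its brightest probe and 0.19 (SE 0.12) and 0.13 (SE 0.12) at the others. Snai2, a transcription factor of mesenchymal transition, gave 0.36 (SE 0.12), and Itga5, the fibronectin receptor subunit, gave -0.38 (SE 0.12; limma, adjusted p from 0.479 to 0.490 for the brightest probes of these genes). The brightest genes of the list, Junb at 0.032 (SE 0.11), Sparc at 0.066 (SE 0.12) and Acta2 at -0.15 (SE 0.24), did not reach the threshold (limma, adjusted p = 0.916, 0.834 and 0.818). Their dimmer probes gave 0.080 (SE 0.11) for Junb, 0.42 (SE 0.26) for Sparc, and -0.075 (SE 0.18) and -0.18 (SE 0.31) for Acta2 (limma, adjusted p from 0.595 to 0.882). Fibroblast markers, with Col1a1 among them, had 12 of 13 log2 changes above 0, a median of 0.22 (0.10 without control replicate 1 and 0.38 without control replicate 2), and summed levels of 193 and 210 times the 75th percentile on the G2-EC-KO arrays, against 165 and 196 times on the control arrays, with 13 of 13 above background. Cell cycle genes were the list with the highest median, 1.11, with 17 of 21 higher and 0 lower at an unadjusted p under 0.05 and summed levels of 103 and 107 times on the G2-EC-KO arrays, against 85.3 and 84.2 times on the control arrays. The part of these in the values above was not tested.

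Markers of the remaining cell types were also measured. Macrophage and monocyte markers, 14 tested, had a median log2 change of 0.34 (0.19 to 0.50 with 1 array left out). Log2 changes were above 0 for 14 of 14, with 2 at an unadjusted p under 0.05 and 0 past adjustment (limma). Summed levels of these markers were 18.5 and 15.8 times the 75th percentile on the G2-EC-KO arrays, against 11.9 and 16.6 times on the control arrays. Platelet and red cell markers had a median of 0.44 over 7 genes, which was -0.026 without G2-EC-KO replicate 1 and 0.17 without control replicate 1, with summed levels of 149 and 78.8 times on the G2-EC-KO arrays, against 86.5 and 75.4 times on the control arrays. Those sums mostly carried Hba-a1, a red cell gene and the brightest of the list. It read 7.18 and 6.26 on the G2-EC-KO arrays, against 6.40 and 6.19 on the control arrays. Ppbp, the brightest platelet gene, read -1.37 and -1.25 on the G2-EC-KO arrays, against -2.82 and -1.40 on the control arrays. Both were named after their values were seen. Lymphocyte markers had a median of -0.038 over 7 genes (-0.55 to 0.34 with 1 array left out), with summed levels of 0.788 and 0.688 times on the G2-EC-KO arrays, against 1.17 and 0.549 times on the control arrays and Cd3g and Cd8a above background on 0 arrays. The 3 mesothelial markers tested had a median of 0.54 (0.24 with the filter on all 4 arrays), with summed levels of 7.79 and 7.75 times on the G2-EC-KO arrays, against 8.13 and 7.68 times on the control arrays. Named after their values were seen, these were Krt19 at 0.54 (SE 0.18), Wt1 at -0.054 (SE 0.11) and Msln at 1.85 (SE 1.16; limma, adjusted p = 0.490, 0.860 and 0.597). Platelets and macrophages are known sources of Tgfb1. The part of these cells in the Tgfb1 value was not tested.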

How the data were processed

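Each sample's total RNA (0.2 ug, per the labels' protocols) gave 1 Cy3 target for an Agilent 1-colour array of design 014868. The deposited scanner files hold spot intensity values that per the file headers came from Feature Extraction 10.7.3.1 after background subtraction and detrending (the submitters' processing notes name version 10.5). The deposited value table of intensity values equals median spot signal minus local background plus 16 in every row and served as an alternative. Per the file headers the flags for background, saturation and outliers are other 0 or 1 values, and the 87 to 101 outlier spots per array were not used.

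Processed signals on the log2 scale minus the 75th percentile of each array were averaged over the spots of a probe. Probes well above background on at least 2 of 4 arrays were tested with limma 3.58.1 in R 4.3.3 (lmFit, eBayes, group alone, two-sided, Benjamini-Hochberg at 0.05), with 2 residual and 2.58 prior degrees of freedom. The limma step alone was tested on simulated arrays with planted changes. RefSeq named 26933 of 41174 probes by accession, and 1 list symbol, Ctgf, was updated to Ccn2. The number of arrays limits the precision.

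The genes and lists were chosen with earlier results of these data known. The rule named every probe of the 10 genes, of each pathway list up to 5 genes at an unadjusted p under 0.05 and the 3 brightest, and Gata2. The 2 brightest markers per cell type, also in the rule, are given only as part of their lists. Exceptions are Hba-a1, Krt19 and Wt1, named after their values were seen, and Dcn and Acta2, named by pathway lists. With 4 arrays no gene was named for a similar pattern. Alternatives were normexp (offset 50, on median spot signals, since the files hold no mean), quantile normalization, median centring, no filter or one on all 4 arrays, the value table floored at 1, an intensity trend, outlier spots kept, a replicate block and 1 array left out.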

Additional observations from a re-analysis of the deposited data

How the results depend on the processing

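Under all 13 alternatives 0 of the 10 genes' probes passed an adjusted p of 0.05 by limma. Between 8 and 12 of the probes had a log2 change below 0, with the lowest count without G2-EC-KO replicate 2. The unadjusted call of Tgfbr3 was lost, leaving 0 probes, with normexp, median centring, no filter, the value table, an intensity trend and the replicate block. Leaving out 1 array gave 0 to 1 such probes, which was Tgfb2 without G2-EC-KO replicate 1 and Ltbp1 without G2-EC-KO replicate 2. Probes without overlap numbered 3 with normexp and with the value table, and 8 to 10 with 1 array left out, where fewer arrays make overlap rarer. Pathway list genes at an unadjusted p under 0.05 numbered 6 as reported, 3 without a filter, 11 with an intensity trend and 3 to 9 with 1 array left out. Over the whole table, calls numbered 2 with normexp, quantile normalization and median centring, 0 without a filter, with the filter on all 4 arrays, an intensity trend and the replicate block, and 0 to 8 with 1 array left out, while unadjusted calls ranged from 1336 without control replicate 1 to 5593 without G2-EC-KO replicate 1. What set these differences was not tested. Quantile normalization turned Junb to -0.094. With 1 array left out, log2 changes crossed 0 for Tgfb3 (-0.25 to 0.066), Tgfbr2 (-0.0089 to 0.24), the brighter Tgfbr1 probe (-0.17 to 0.054), Smad3 (-0.21 to 0.0018), Smad7 (-0.26 to 0.080), Skil (-0.011 to 0.11 and -0.14 to 0.0045), Eng (-0.077 to 0.14), Dcn (-0.15 to 0.39), Acta2 (-0.44 to 0.15) and Junb (-0.0043 to 0.069). Same-numbered arrays are not said to be paired, their deviations correlated at 0.044 over probes, and the replicate block moved the unadjusted calls of the 10 genes to 0. All 13 tested probes of the 10 genes were above background on 4 of 4 arrays, and 3 of them were among the 7400 dimmest tested.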
